A study of Mus musculus with 4 samples.

Results

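Expression of the epidermal growth factor (EGF) family ligands and their ErbB receptors was examined in untreated astrocyte-enriched cultures (AECs) and in AECs after oxygen–glucose deprivation (OGD). The set held 10 of the 29676 gene names on the array, 7 ligand genes (*Egf*, *Tgfa*, *Areg*, *Ereg*, *Btc*, *Hbegf* and *Nrg1*) and 3 receptor genes (*Egfr*, *Erbb2* and *Erbb3*). The rule takes these genes by name and uses no measured value, although the family was picked with earlier results of these data known, and every probe that the array's design assigns to one of these names was taken, 12 probes in all. AECs were glial cultures from the cortex of newborn ICR mice, each culture made from several pups picked without regard to sex. Microglia had been removed from them with PLX3397, which blocks the CSF1 receptor that microglia need to survive. Untreated and OGD-treated cultures both carried this depletion. The 2 untreated cultures were compared with 2 cultures kept for 15 h in glucose-free medium under hypoxia. Each RNA sample was labeled with Cy3 and read on its own single-color array, and all 4 arrays lay on the same slide and were read in the same scan. Per the study, these cultures still held some oligodendrocytes, possibly also NG2 glia, whose response may have affected its array results. A signal is therefore not assigned to a cell type here.

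EGF family ligands are made as membrane-anchored precursors, and cell-surface proteases of the ADAM family cut them free. EGF, transforming growth factor-alpha (*Tgfa*) and amphiregulin (*Areg*) bind the EGF receptor (*Egfr*), whereas epiregulin (*Ereg*), betacellulin (*Btc*) and heparin-binding EGF-like growth factor (*Hbegf*) bind both *Egfr* and *Erbb4*, and neuregulin-1 (*Nrg1*) binds *Erbb3* and *Erbb4*. *Erbb2* has no known ligand of its own and acts as the partner of the other receptors, and *Erbb3* has little kinase activity. In the brain, EGF receptor signaling is known for driving the growth and the reactive state of astrocytes.

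The values given first are processed signals, that is, intensities from which the scanner software had subtracted background within each array. A log2 fold change is the OGD mean minus the untreated mean of the log2 signal after subtraction of each array's 75th percentile, and adjusted p-values come from limma with Benjamini–Hochberg adjustment over 28254 tested probes. A probe was tested when at least 1 group had it well above background on both of its arrays. The arrays of untreated AECs had 75th percentiles of 2135 and 2164, those of OGD-treated AECs of 887 and 776, whereas the control RNA spiked into every sample differed by a mean of −0.085 on the log2 scale. That mean is over 9 control probes, with differences from −0.75 to 0.28. When arrays were scaled on these controls instead, the median log2 fold change of all tested probes went from 0.18 to −1.11. Changes below are relative to the 75th percentile of each array unless another scaling is named. In bulk cultures, fewer cells of a type and less RNA per cell cannot be told apart. The study's methods give a fixed amount of total RNA for labeling, so that neither scaling gives amounts per culture or per cell. Replicates correlated at r = 0.998 over probes in untreated AECs and at r = 0.995 after OGD.

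Most of the ligands rose after OGD, while the receptors moved apart from each other. Of the 12 probes of the family, 11 were tested and 10 of them passed an adjusted p of 0.05. Over all tested probes 65.0% passed, so that passing alone does not set these probes apart. The 10 probes stood for 8 genes. Those of *Areg*, *Ereg*, *Tgfa*, *Hbegf*, *Nrg1* and *Egfr* were higher after OGD, 8 probes against a background of 37.9% of all tested probes. Those of *Egf* and *Erbb2* were lower, 2 probes against a background of 27.1%. These directions were the same in every alternative that was run, except that 1 of the 3 *Egfr* probes was lower under control scaling and *Egf* was slightly higher after normexp background correction. Over 2-fold and past the adjusted p were 7 member probes that rose, against 13.9% of all probes, and 2 that fell, against 14.8%. *Btc* did not pass, and *Erbb3* was not tested. The groups did not overlap in 10 of the 11 tested probes, against 84.7% of all tested probes.

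**Figure D1:**
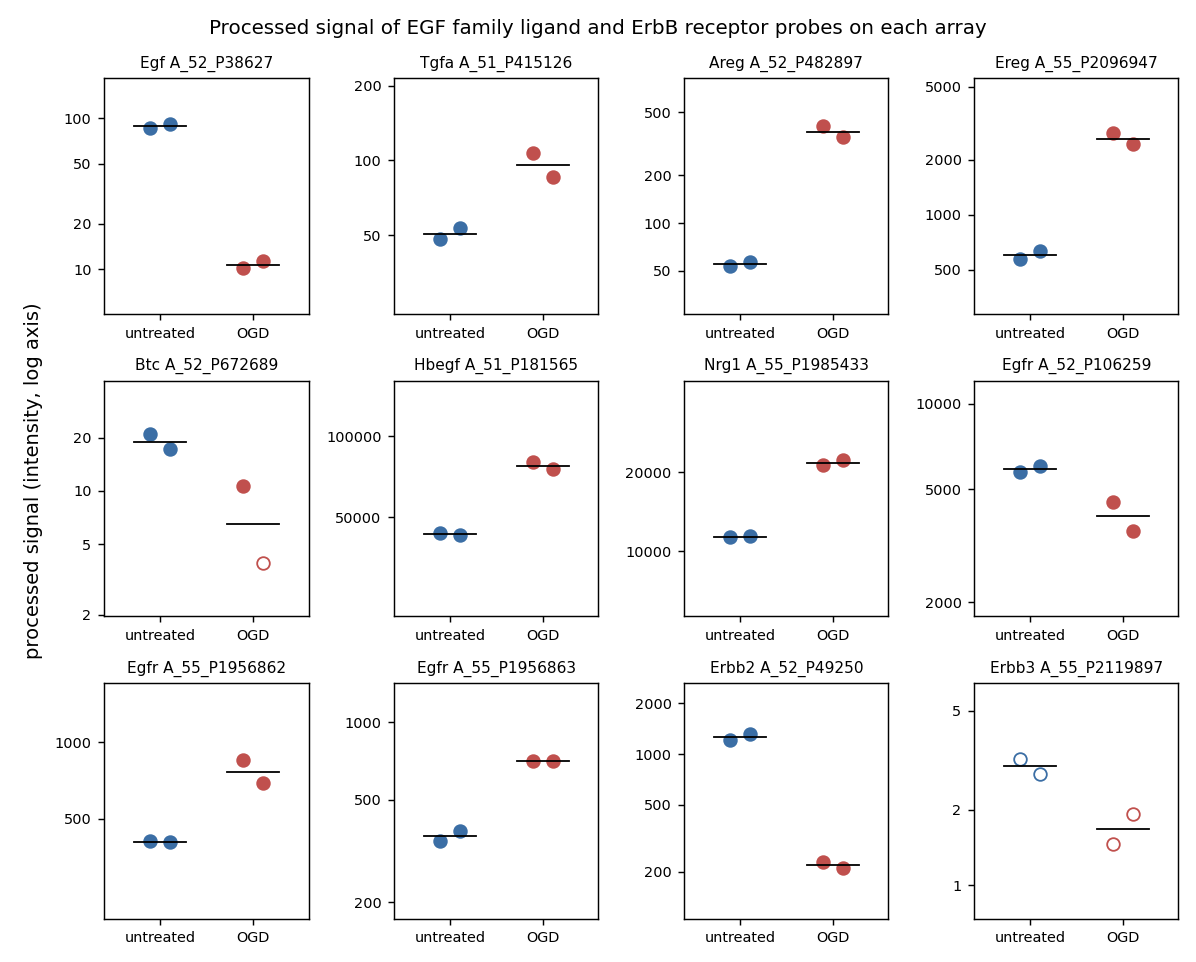
Processed signal (intensity, log axis, a scale of its own for each panel) of the 12 probes on the 2 untreated (blue) and 2 OGD (red) arrays, with the mean of log2 values as a bar and open circles where a probe was not well above background. The OGD arrays lie above the untreated arrays for *Tgfa*, *Areg*, *Ereg*, *Hbegf*, *Nrg1* and 2 *Egfr* probes, and below for *Egf*, *Erbb2*, the *Egfr* probe A_52_P106259 and the dim *Btc* and *Erbb3* probes, before any scaling between arrays.

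Amphiregulin had the largest rise of the family with 75th-percentile scaling. The *Areg* probe A_52_P482897 (NM_009704, mm9 chr5:91570090-91570149, plus strand) read 53.4 and 56.8 in untreated AECs and 409 and 347 after OGD. Both OGD arrays were far above both untreated arrays even before scaling. Its normalized log2 signal went from −5.29 ± 0.050 to −1.14 ± 0.033 (SD, n = 2 in each group), a log2 fold change of 4.15 (SE 0.080), which is 17.7-fold, at an adjusted p of 0.000729. Only 0.382% of the tested probes had a larger log2 fold change. Epiregulin, its neighbor on chromosome 5, was the other gene past both limits of the study, an adjusted p of 0.05 and a change of over 10-fold. The *Ereg* probe A_55_P2096947 (NM_007950, mm9 chr5:91522553-91522612, plus strand) read 574 and 634 in untreated AECs and 2784 and 2426 after OGD. The log2 fold change was 3.48 (SE 0.087), 11.2-fold, at an adjusted p of 0.000729. Of all tested probes, 1.33% were past both limits, and 229, or 0.811%, were past both and higher after OGD. After normexp correction the log2 fold changes were 3.31 for *Areg* and 3.38 for *Ereg*, so that their order turned and *Areg* was no longer past 10-fold. Under control scaling neither gene passed that limit (0 member probes, against 0.244% of all probes past both limits and higher), with log2 fold changes of 2.86 for *Areg* and 2.19 for *Ereg*.

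The promoter sequences of RefSeq (GRCm38.p6) were searched for short motifs in the 250 bases before the transcription start, and 6 of the 10 genes had an entry, with 7 windows. *Ereg*, *Hbegf*, *Nrg1* and *Erbb3* had none, so that of the ligands that rose only *Areg* and *Tgfa* could be searched. The search covered both strands for the cyclic AMP response element TGACGTCA, to which factors of the CREB and ATF families are known to bind, its half-site TGACG, the hypoxia response core ACGTG, the AP-1 site TGANTCA and the TATA box TATAAA. The window of *Areg*, the gene with the largest rise with 75th-percentile scaling, is printed together with that of *Tgfa*, another ligand that rose, and that of *Erbb2*, a receptor that fell, with capitals for any cyclic AMP response element, half-site, ACGTG or TGANTCA.
Areg, chr5:91139349-91139598, plus strand: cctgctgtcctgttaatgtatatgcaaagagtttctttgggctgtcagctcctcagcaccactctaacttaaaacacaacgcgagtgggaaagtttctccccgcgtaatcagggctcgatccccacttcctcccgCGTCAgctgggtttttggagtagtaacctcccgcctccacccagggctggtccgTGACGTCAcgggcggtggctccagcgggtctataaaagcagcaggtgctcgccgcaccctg
Tgfa, chr6:86194972-86195221, plus strand: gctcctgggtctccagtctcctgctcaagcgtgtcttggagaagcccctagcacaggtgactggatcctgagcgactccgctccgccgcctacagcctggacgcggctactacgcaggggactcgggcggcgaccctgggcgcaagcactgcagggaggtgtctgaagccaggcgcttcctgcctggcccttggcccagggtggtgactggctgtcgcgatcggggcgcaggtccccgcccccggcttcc
Erbb2, chr11:98412234-98412483, plus strand: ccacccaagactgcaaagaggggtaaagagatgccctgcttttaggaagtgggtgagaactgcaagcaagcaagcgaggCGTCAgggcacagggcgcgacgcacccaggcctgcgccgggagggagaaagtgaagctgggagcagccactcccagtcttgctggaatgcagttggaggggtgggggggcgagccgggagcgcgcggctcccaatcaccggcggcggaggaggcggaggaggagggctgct
Among these windows only that of *Areg* held the whole cyclic AMP response element, which is found in 1.55% of the 32851 promoter windows of the same length. It began 61 bases before the start, and 2 of the 3 half-sites in this window are the overlapping strands of the same element, with the other 115 bases before the start. The *Areg* window also held TATAAA 31 bases before the start, as do 12.4% of all windows. The half-site, present in 17.8% of all windows, was found once in the windows of *Erbb2* and *Btc*. The *Tgfa* and *Egfr* windows held none of the 5 motifs. ACGTG, present in 16.6% of all windows, was found in 1 of the 2 *Egf* windows, and TGANTCA, present in 6.75%, in none of the 7. A match describes the letters of a window and does not show that a factor was bound there.

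*Areg* and *Ereg* lie in a row of EGF family genes on chromosome 5, in the order *Epgn*, *Ereg*, *Areg* and *Btc* with no other protein-coding gene between them in RefSeq. On mm9, the probes of *Ereg*, *Areg* and *Btc* lie 58.4, 106 and 323 kb from that of *Epgn*. The 2 inner genes rose, and the 2 outer genes had no call. *Epgn* (epigen, probe A_51_P187491), another ligand of the EGF receptor, read 34.6 and 31.3 in untreated AECs and 15.8 and 16.4 after OGD, with a log2 fold change of 0.34 (SE 0.13) and an adjusted p of 0.083. The value for *Epgn* was −0.95 under control scaling and 0.95 after normexp correction, a call in either direction. The *Btc* probe A_52_P672689 (NM_007568, mm9 chr5:91786948-91787007, minus strand) read 20.9 and 17.2 in untreated AECs and 10.7 and 3.93 after OGD. The second OGD array was not well above background, so that the probe entered the test through the untreated arrays. Its normalized values overlapped between the groups, and the log2 fold change was −0.18 (SE 0.47) at an adjusted p of 0.760. The sign depended on single arrays and on the background correction. Without OGD replicate 1 the value was −0.80 (adjusted p = 0.0304), without OGD replicate 2 it was 0.45 (adjusted p = 0.103), and after normexp it was 1.02.

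*Tgfa*, *Hbegf* and *Nrg1* rose by similar amounts, each between 4-fold and 5-fold. *Tgfa* was read by 10 spots of the probe A_51_P415126 (NM_031199, mm9 chr6:86224838-86224897, plus strand), with a mean of 48.2 and 53.4 in untreated AECs and 106.9 and 85.6 after OGD. The spots did not overlap between groups, the highest untreated spot at 58.5 and the lowest OGD spot at 77.6. The log2 fold change was 2.29 (SE 0.099) at an adjusted p of 0.000809. The *Hbegf* probe A_51_P181565 (NM_010415, mm9 chr18:36664738-36664797, minus strand) read 43723 and 42698 in untreated AECs and 80267 and 75214 after OGD, with no spot marked as saturated. Heparin-binding EGF-like growth factor is known as a growth factor for astrocytes. Its log2 fold change was 2.22 (SE 0.084) at an adjusted p of 0.000765, and 1.38 after quantile normalization. The *Nrg1* probe A_55_P1985433 (NM_001364427, mm9 chr8:32928500-32928559, minus strand) read 11318 and 11470 in untreated AECs and 21326 and 22329 after OGD. Both OGD arrays were again above both untreated arrays. The log2 fold change was 2.31 (SE 0.12) at an adjusted p of 0.000982. The array's design lists several *Nrg1* transcripts for this probe, and which of them changed was not measured. Between 2.30% and 2.55% of the tested probes had a larger log2 fold change than these 3 ligands.

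*Egf* itself fell. It was read by 10 spots of the probe A_52_P38627 (NM_010113, mm9 chr3:129380826-129380885, minus strand), with a mean of 86.1 and 91.6 in untreated AECs and 10.2 and 11.4 after OGD. On each OGD array 8 of the 10 spots were well above background, and 1 spot marked as an outlier was left out on the first untreated array. The log2 fold change was −1.67 (SE 0.15), 3.18-fold lower, at an adjusted p of 0.00235. The OGD signals lie close to background, and after normexp correction, which adds a constant to every spot, the value was 0.18 at an adjusted p of 0.14. Under control scaling it was −2.96.

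The receptors did not move together. *Egfr* was read by 3 probes, all on the plus strand of chromosome 11 of mm9, and all of them passed as higher after OGD with 75th-percentile scaling, but not by the same amount. The probe A_52_P106259, at chr11:16813815-16813874, is designed on NM_207655, the transcript of the full-length receptor. It read 5770 and 6019 in untreated AECs and 4521 and 3568 after OGD, lower before scaling and higher after it. Its log2 fold change was 0.82 (SE 0.093), 1.77-fold, at an adjusted p of 0.00378, and it turned to −0.47 (adjusted p = 0.018) under control scaling. The probes A_55_P1956862, at chr11:16787172-16787231, and A_55_P1956863, at chr11:16783556-16783615, are designed on NM_007912, the shorter transcript that encodes a truncated receptor without the kinase domain. A_55_P1956862 read 410 and 404 in untreated AECs and 855 and 690 after OGD, a log2 fold change of 2.29 (SE 0.087) at an adjusted p of 0.000765. A_55_P1956863 read 344 and 378 in untreated AECs and 706 and 708 after OGD, a log2 fold change of 2.34 (SE 0.11) at an adjusted p of 0.000891. Both stayed higher under control scaling, at 1.00 and 1.05.

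The first 30 bases of the 3 *Egfr* probes are given to show that they read different stretches of the gene.
A_55_P1956863: tctggaagtatgcagatgccaataatgtct
A_55_P1956862: gaagtgtggccatctgggtacgttcaatgg
A_52_P106259: gttgcaagccactctaactgtagcaatgaa
The longest run of bases that neighboring probes share is 5. The first 2 lie 3616 bases apart in the genome but 89 bases apart in the transcript NM_007912, and A_52_P106259 lies a further 26.6 kb downstream. Whether the full-length transcript also carries the sequence of A_55_P1956863 was not tested, and this probe cannot be read as the short transcript alone.

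Within each array, the ratio of 2 probes does not depend on the scaling between arrays. The log2 ratio of A_55_P1956862 over A_52_P106259 was −3.81 and −3.90 in untreated AECs and −2.40 and −2.37 after OGD. This ratio rose by 1.47 on the log2 scale, or 2.77-fold, and that of A_55_P1956863 over A_52_P106259 rose by 1.52, or 2.87-fold. The groups did not overlap in either ratio, at a two-sided exact permutation p of 0.333, the smallest that 2 against 2 arrays can give. The ratio of the 2 upstream probes to each other changed by −0.055, within its spread between arrays (SD 0.22 after OGD). Upstream probes read higher changes than downstream probes in many other genes of these arrays. Over 2784 genes with probes more than 2000 bases apart, the upstream probe had the higher log2 fold change in 79.3%, by a median of 0.60. The difference of 1.52 between the outermost *Egfr* probes was matched or passed in 592 of these genes, or 21.3%, and the part of this general shift in the *Egfr* result was not tested.

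**Figure D2:**
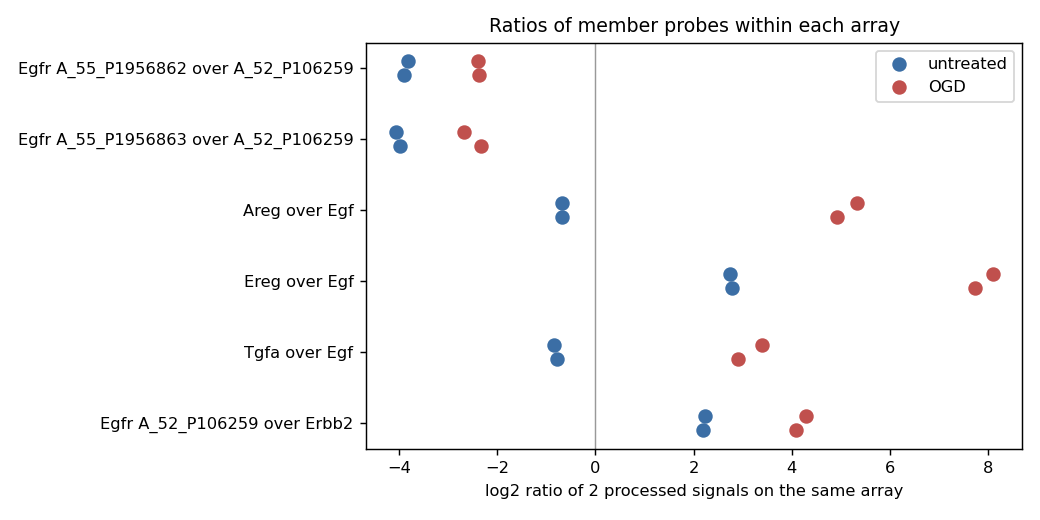
Log2 ratio of the processed signals of 2 probes on the same array (horizontal axis) for 6 pairs of probes, with 1 point for each of the 2 untreated (blue) and 2 OGD (red) arrays. All 6 ratios are higher on both OGD arrays than on both untreated arrays, by 1.47 and 1.52 for the *Egfr* pairs and 1.97 for *Egfr* over *Erbb2*. The ratios over *Egf* and *Erbb2* set a probe that rose over one that fell, which fixes their direction.

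*Erbb2*, the partner of the other receptors, fell. Its probe A_52_P49250 (NM_001003817, mm9 chr11:98298103-98298162, plus strand) has 10 spots, which averaged 1219 and 1312 in untreated AECs and 230 and 211 after OGD. The highest OGD spot was at 260.4 and the lowest untreated spot at 1138, so that the spots did not overlap between groups. The log2 fold change was −1.15 (SE 0.084), 2.22-fold lower, at an adjusted p of 0.00161. It was −2.44 under control scaling, and lay between −2.44 and −0.95 in all alternatives. Within arrays, the log2 ratio of the full-length *Egfr* probe over *Erbb2* was 2.24 and 2.20 in untreated AECs and 4.30 and 4.08 after OGD, a rise of 1.97 or 3.92-fold (two-sided exact permutation p = 0.333, the smallest possible). *Erbb3*, the receptor of neuregulins, was not well above background on any array. Its probe A_55_P2119897 (NM_010153, mm9 chr10:128006424-128006483, minus strand) read 3.21 and 2.79 in untreated AECs and 1.46 and 1.93 after OGD, and no fold change is given.

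The ligands also moved apart from each other within arrays. The log2 ratio of *Areg* over *Egf* was −0.69 on both untreated arrays and 5.33 and 4.93 after OGD, a rise of 5.82. The ratio of *Ereg* over *Egf* rose by 5.15 and that of *Tgfa* over *Egf* by 3.96. All 3 had non-overlapping groups at the smallest possible exact permutation p of 0.333. This outcome was fixed, since each ratio sets a ligand that rose without overlap over *Egf*, which fell without overlap. They share the dim *Egf* probe and are therefore not separate results. Their size rests on the background correction of that probe, since after normexp *Egf* was at 0.18, beside 3.31 for *Areg*, 3.38 for *Ereg* and 1.84 for *Tgfa*.

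**Figure D3:**
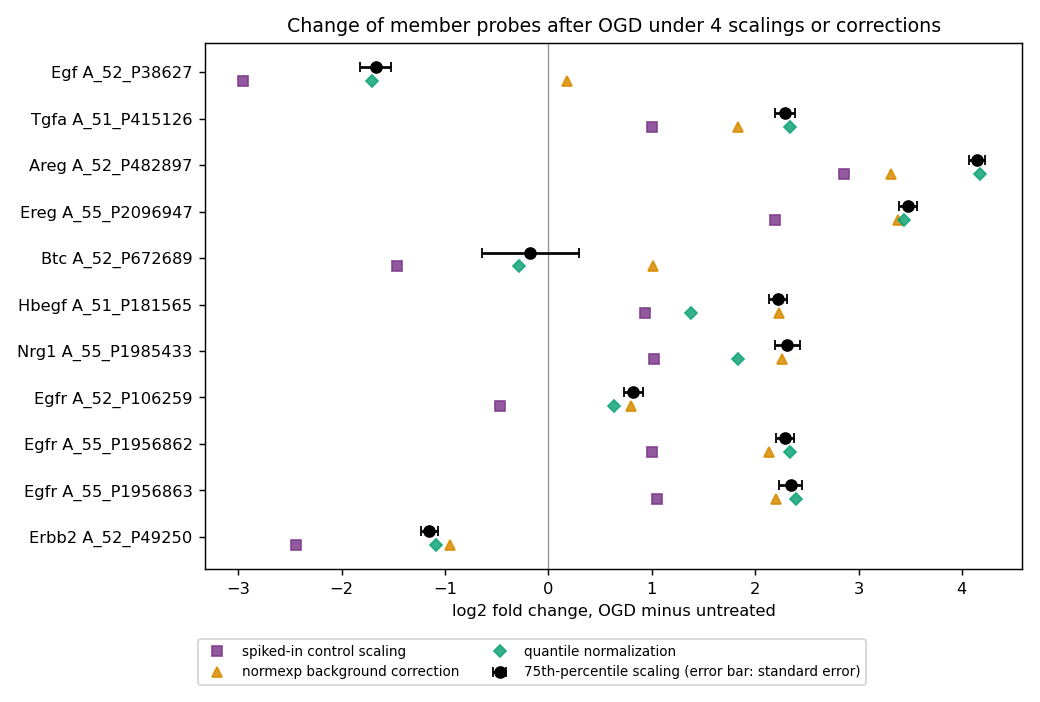
Log2 fold change (horizontal axis, OGD minus untreated) of the 11 tested probes with 75th-percentile scaling (black, bars show the standard error), scaling on spiked-in controls (purple), normexp background correction (orange) and quantile normalization (green). *Areg*, *Ereg*, *Tgfa*, *Hbegf*, *Nrg1* and 2 *Egfr* probes lie above 0 and *Erbb2* below 0 in all 4, whereas A_52_P106259, *Egf* and *Btc* change side.

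With scaling on the spiked-in controls, under which 86.4% of all tested probes passed the adjusted p, 4.47% as higher and 81.9% as lower, 7 of the 11 member probes were still higher after OGD and all 11 passed the adjusted p. The 7 were those of *Areg*, *Ereg*, *Tgfa*, *Hbegf* and *Nrg1* and the 2 upstream *Egfr* probes. *Tgfa* had a log2 fold change of 1.00, *Hbegf* of 0.93 and *Nrg1* of 1.02. *Btc* was called lower, at −1.46.

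The rest of the pathway was described with a list of 62 genes, of which 60 were tested with 1 probe each. Of these, 24 were called higher, 15 lower and 21 were not called, beside 37.1% higher and 27.8% lower among all 21061 genes tested. The median log2 fold change of the list was 0.085, against 0.16 over all genes. Under control scaling 3 of the 60 were higher and 57 lower, whether called or not, beside 91.8% lower among all tested probes. The number of pathway genes called, 39, dropped to 14 without untreated replicate 1 and to 14 without untreated replicate 2. The calls over all probes also dropped, from 18354 of 28254 to 11108 of 28640 and 10264 of 28954, and 10 member probes were called in both cases.

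Of the other ligands and the other receptor, *Nrg2* fell on 1 of its 2 probes, *Erbb4* passed with a small change, and *Nrg4* was close to background. *Nrg2*, a neuregulin that binds *Erbb3* and *Erbb4*, read 2600 and 2822 in untreated AECs and 341 and 352 after OGD on the probe A_55_P2094034, a log2 fold change of −1.59 (SE 0.12) at an adjusted p of 0.00165. A second, dimmer *Nrg2* probe gave −0.35 (SE 0.15) at an adjusted p of 0.114. *Erbb4*, the receptor shared by neuregulins and several EGF ligands, read 927 and 919 in untreated AECs and 472 and 410 after OGD. Its log2 fold change was 0.30 (SE 0.075) at an adjusted p of 0.0282, and it was −0.98 under control scaling. The *Erbb4* call was lost in 7 alternatives, with adjusted p from 0.0509 without OGD replicate 1 to 0.196 without untreated replicate 2. The others were without untreated replicate 1 (0.158), median scaling (0.0613), the percentile over probes well above background (0.158), no filter on dim probes (0.0619) and the replicate block (0.0671). Of *Nrg4*, the probe A_55_P2115330 read 10.9 and 11.8 in untreated AECs and 7.76 and 9.72 after OGD, a log2 fold change of 0.99 (SE 0.20, adjusted p = 0.0174), which was −0.30 under control scaling. This call was lost with the methods' t-test (adjusted p = 0.104), without untreated replicate 1 (adjusted p = 0.092) and without untreated replicate 2 (adjusted p = 0.0829). The probe A_55_P2185900 read 15.9 and 13.6 in untreated AECs and was not well above background after OGD (2.07 and 2.35), so that its change is not read here. *Nrg3* was not well above background on any array.

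Among 9 genes of ligand release, 3 were called higher and 2 lower. The sheddase *Adam17*, which frees *Tgfa*, *Areg*, *Ereg* and *Hbegf* precursors, had a log2 fold change of 0.43 (SE 0.099, adjusted p = 0.0234) on its brighter probe and −0.059 (adjusted p = 0.718) on the other. *Rhbdf2*, an inactive rhomboid protein that carries *Adam17* to the cell surface, fell by 0.51 on the log2 scale (SE 0.11, adjusted p = 0.0189), but was at −0.0048 (adjusted p = 0.965) after normexp correction. The *Rhbdf2* call was also lost with the methods' t-test (adjusted p = 0.0773) and without untreated replicate 1, untreated replicate 2 or OGD replicate 2 (adjusted p = 0.0539, 0.118 and 0.0545). *Adam17* was at −0.86 under control scaling, and its call was lost in 5 alternatives, among them without untreated replicate 1 (adjusted p = 0.147) and without untreated replicate 2 (adjusted p = 0.112), the others having adjusted p between 0.0555 and 0.0758. Of the 4 membrane partners, 3 were called higher and 1 was not called.

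Among 15 adaptors and first transducers, 5 were called higher and 7 lower. *Gab2*, a docking protein that links receptors to phosphoinositide 3-kinase, read 54.8 and 55.5 in untreated AECs and 200.5 and 187 after OGD. The log2 fold change was 3.18 (SE 0.081), 9.09-fold, at an adjusted p of 0.000729, and 1.90 under control scaling. Of the 13 genes of the core kinase cascade, 4 were called higher, 2 lower and 7 were not called.

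Of 16 negative regulators, 15 were tested, with 7 called higher and 3 lower. *Errfi1*, whose product Mig6 binds and inhibits the EGF receptor kinase and is itself a target of the pathway, read 8027 and 8054 in untreated AECs and 37955 and 31963 after OGD. Its log2 fold change was 3.49 (SE 0.077), 11.2-fold, at an adjusted p of 0.000729, and 2.20 under control scaling. *Errfi1* and *Gab2* were the 2 pathway genes past 4-fold on the probe that stood for the gene, the one with the highest mean normalized log2 signal over all 4 arrays. Another probe passed the adjusted p at that size for 5 other genes, in which the probes disagree. The other probes of *Ptpn2* (log2 fold change 3.16, against 0.97 on the probe that stood for the gene) and *Cd44* (2.73 and 2.05, against 0.71) were higher after OGD. Those of *Adam12* (−2.19, against 0.28), *Rnf41* (−2.12, against 0.010) and *Hras* (−2.07, against 0.58) were lower. For *Rnf41* the change itself decides the choice, since the probe at −2.12 read 1202 and 1232 in untreated AECs and 116.4 and 100.2 after OGD, against 679 and 748 and then 276 and 277 on the other. *Lrig1*, a membrane protein that promotes breakdown of ErbB receptors, fell by 0.79 on the log2 scale (SE 0.075, adjusted p = 0.00257) on the probe A_55_P2109997, and an about equally bright probe gave −0.38 (adjusted p = 0.0711). *Lrig3* was at −0.19 (SE 0.087, adjusted p = 0.125).

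**Figure D4:**
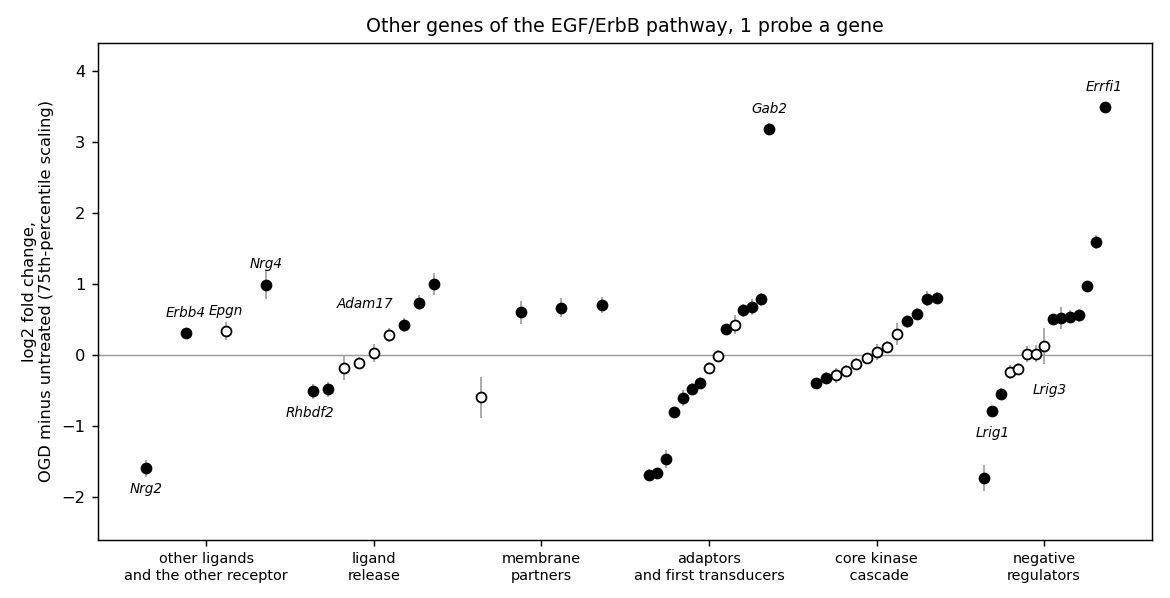
Log2 fold change (vertical axis, OGD minus untreated, 75th-percentile scaling) of the 60 tested pathway genes, 1 probe a gene, ordered by role along the horizontal axis, with gray bars for the standard error and filled circles for genes that passed the adjusted p. *Errfi1* at 3.49 and *Gab2* at 3.18 stand above all other genes of the list.

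Markers of the cell types were read beside these values. Of 9 astrocyte markers, 5 were called higher, 1 lower and 3 were not called, and *Gfap* read 47436 and 46408 in untreated AECs and 31713 and 28266 after OGD (log2 fold change 0.72). *Sox9*, a transcription factor of astrocytes, was the marker called lower, at −1.52. Another *Aldh1l1* probe read 771 and 809 in untreated AECs and 54.9 and 52.9 after OGD. It gave −2.50 (adjusted p = 0.000752), against 0.44 on the probe that stood for the gene. Before scaling, the summed signal of the 9 astrocyte markers went from between 297546 and 337130 to between 167078 and 188037. The 75th percentile of all probes itself differed by −1.37 on the log2 scale. Of 8 microglial markers, 3 were called higher and 2 lower, their summed signal before scaling went from between 9544 and 10276 to between 5157 and 6142, and *Cx3cr1* was at or near background. *Csf1r* and *Aif1* were called higher, with log2 fold changes of 1.14 and 1.03, although 2 other *Csf1r* probes gave 0.49 (adjusted p = 0.0633) and 0.48 (adjusted p = 0.440). Called lower were *Tmem119* and *Trem2*, with −0.88 and −0.93. Of 9 markers of the oligodendrocyte lineage, 4 were called higher and 4 lower, their summed signal before scaling went from between 62432 and 63764 to between 19876 and 23464, and *Olig2* fell by 2.50 and *Sox10* by 0.76 on the log2 scale. Under control scaling the log2 fold changes of *Gfap*, *Csf1r* and *Aif1* were −0.56, −0.15 and −0.26, and no marker of these 3 lists was higher. The lists of neurons (5 tested, 2 higher, 2 lower), meningeal fibroblasts (4 tested, 0 called), endothelial cells (2 tested, 0 called) and ependymal cells (2 tested, 1 higher, 1 lower) showed no common direction with 75th-percentile scaling, whereas under control scaling all of their tested genes were lower (0 higher). Over all tested probes, 91.8% were lower under control scaling, so that this direction does not set the marker genes apart. The part of such shifts between cell types in the results of the ligands and receptors was not tested.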

How the data were processed

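Total RNA of AECs was amplified, labeled with Cy3 and hybridized to Mouse Gene Expression 4 × 44 K v2 arrays. Per the labels, the authors used Agilent Feature Extraction 11.5.1.1. Each deposited file gives, per spot, an intensity (the processed signal) with background subtracted within the array and no normalization between arrays. The table deposited for the series has the same intensities (largest difference 0). Probe positions are on mm9, as the file headers give them. According to the study's methods, wells were seeded from independent cultures of different pups.

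Control and outlier spots were left out, log2 signals of 1 probe were averaged, and each array's 75th percentile was subtracted. A probe was well above background where a fraction of at least 0.5 of its spots was. Groups were compared with limma 3.58.1 (lmFit and eBayes, residual df 2, prior df 1.85) in R 4.3.3. The steps were tested on simulated data. A pathway or marker gene has the value of its tested probe with the highest mean log2 signal over the 4 arrays. Python 3.11.15 served for tables, with pandas 2.3.3 and numpy 2.4.6, and matplotlib 3.10.9 for plots. The 16 alternatives were other tests (a replicate block, the methods' t-test, and limma with trended and robust priors), other scalings and background corrections, other filters, the series table, and each array left out in turn. Counts were also taken with a 2-fold limit and with the mean over the probes of a gene. The number of arrays limits the precision. The members and lists were chosen with earlier results of these data known. Named were all members, the other ligands and *Erbb4*, pathway genes past the adjusted p and 4-fold on that probe, *Errfi1*, *Lrig1*, *Lrig3*, *Adam17*, *Rhbdf2*, 5 markers, and the 3 genes nearest to the member with the largest rise and to that with the largest fall. *Cx3cr1*, *Tmem119*, *Trem2*, *Sox9*, *Aldh1l1* and the pathway genes whose other probe changed were named beside them after their values were seen. The labels do not say whether same-numbered arrays share a culture. Their deviations from the group means correlated at r = −0.057 over probes, which cannot exclude a pairing with 2 arrays in each group.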

Additional observations from a re-analysis of the deposited data

How the results depend on the processing

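Of 175 values of the 11 tested member probes under the alternatives, 169 kept their direction and their side of the threshold, 2 passed it newly and 4 reversed. For the other probes named, 232 of the values were kept, 21 were no longer past the threshold, 6 passed it newly and 11 reversed. Reversed under scaling on spiked-in controls were *Egfr* A_52_P106259 (−0.47), *Epgn* (−0.95), *Nrg4* A_55_P2115330 (−0.30), *Erbb4* (−0.98), *Adam17* (−0.86), *Gfap* (−0.56), *Csf1r* (−0.15) and *Aif1* (−0.26). Reversed after normexp correction were *Egf* (0.18), *Btc* (1.02), *Sox10* (0.83), *Nrg2* A_55_P1991821 (0.78) and *Nrg4* A_55_P2185900 (1.09, not read as a change, since it was not well above background after OGD). *Gfap* was at −0.026 after quantile normalization, and *Btc* at −0.80 without OGD replicate 1 and 0.45 without OGD replicate 2. Member probes past both limits, 2 with 75th-percentile scaling, numbered 0 with control scaling, 1 after normexp and 9 with a 2-fold limit. All probes past both limits, 377, numbered 1227 with control scaling, 106 after normexp, 240 among probes well above background on all 4 arrays and 8108 with a 2-fold limit. Of the probes passing the adjusted p, 58.3% were higher after OGD, against 5.17% with control scaling, 76.8% after normexp, 50.8% after quantile normalization, 49.5% with the percentile taken over probes well above background and 67.8% with no filter on dim probes. With each array left out in turn, 10 to 11 member probes, 10264 to 19190 of all probes and 14 to 39 pathway genes passed the adjusted p, and 384 to 479 of all probes were past both limits. The low counts of 11108 and 10264 probes came without untreated replicate 1 and without untreated replicate 2, and the cause was not tested. With the replicate number as a block, 10 member probes, 17207 of all probes and 35 pathway genes passed, and 377 probes were past both limits. *Erbb4* and *Adam17* lost their calls under this block (adjusted p = 0.0671 and 0.0555). The methods' t-test called 10 member probes, 12680 of all probes and 26 pathway genes, with 349 past both limits. The change of *Btc* and *Egf* after OGD is limited by signals close to background.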

Other observations

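The genes whose 4 normalized signals lay closest to those of *Areg*, each centered on its own mean, were *Tbl2* (Euclidean distance 0.092), *Ak4* (0.112), an adenylate kinase, and *Tnfaip3* (0.150), an inhibitor of NF-kB signaling, among 24493 probes well above background on all 4 arrays. Their log2 fold changes were 4.17, 4.12 and 4.09. Closest to *Egf* were *Ppip5k1* (0.044), *Perm1* (0.065) and *4930432F04Rik* (0.069), with log2 fold changes of −1.65, −1.62 and −1.65. With 4 arrays in 2 groups such a distance mostly compares the size of the change.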
